A study of Populus alba x Populus glandulosa with 12 samples.

Results

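Leaves of 84K poplar after 9 days of drought were compared with leaves after 3 days of drought, with 3 libraries on each day. 84K poplar is a wild-type hybrid of Populus alba and Populus glandulosa. The values were FPKM (fragments per kilobase of gene model, scaled to each library's total) for 85392 gene models. A gene was compared where at least 3 of the 6 libraries of days 9 and 3 reached an FPKM of 1, which 38296 models (44.8%) did. Of these, 18201 carried a KEGG orthology name, the short enzyme or protein name used below, 9625 a KEGG pathway, 31561 a gene ontology term, and 5840 none of these. Plants of both days were under drought, and no library of unstressed plants of day 9 or day 3 was labelled, so that drought and elapsed time cannot be told apart. The labels also give each day its own batch, so that batch and day cannot be told apart. Biological replicates are mentioned in the series text without saying whether each was its own plant, and p-values measure the spread between these libraries only.

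Drought raises abscisic acid, the hormone that closes stomata through a chain of receptors (PYL), phosphatases (PP2C), kinases (SnRK2) and transcription factors (ABF). Leaves that lose water also collect compatible solutes such as raffinose-family sugars and proline, slow their growth, and wind down the chloroplast machinery that turns light into sugar. In a senescing or starving leaf, stored fat and amino acids can feed respiration, with isocitrate lyase and malate synthase bypassing the carbon-losing steps of the citrate cycle.

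Most tested genes differed between the days. A linear model (limma) on log2(FPKM + 1), with p-values adjusted over all 38296 genes by the method of Benjamini and Hochberg and an adjusted p under 0.05 as the threshold, called 28563 genes, which is 74.6% of those tested. Of these, 11259 genes were higher on day 9 (29.4%) and 17304 were lower (45.2%), and the median log2 change over all tested genes was -0.16. At a log2 change of at least 1, 3292 genes were higher and 5951 lower, and at a log2 change of at least 3, 292 were higher and 411 lower. The share of called genes that were higher was 39.4%, against 51.4% after the libraries were scaled by the median ratio of their genes, which moved the median of all genes by 0.18 on the log2 scale. Changes smaller than that shift take their sign from the scaling. The 3 libraries of day 9 did not overlap the 3 of day 3 for 29312 genes, 76.5% of those tested. With so many genes called, a call alone sets no gene apart, and sizes carry more than counts in what follows.

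The libraries of each day were close to each other. Pearson's r across the tested genes lay between 0.977 and 0.979 within day 9 and between 0.974 and 0.975 within day 3, against 0.758 to 0.786 between the days. An FPKM of at least 1 was reached by 35079 to 35677 models in the day 9 libraries and by 37693 to 37765 in the day 3 libraries. The FPKM files give no read counts, so depth is known only in relative terms: from the spacing of low values it was 1.04 to 1.20 times that of the day 3 libraries on day 9. Of the tested genes, 896 passed the filter through day 9 alone and 2379 through day 3 alone, and such genes had to differ. Among the 31631 genes at 1 FPKM or more in all 6 libraries, 31.3% were higher and 42.7% lower, with a median log2 change of -0.10. Gene IDs beginning with A and those beginning with B had like shares, with 29.4% higher in each, and 44.8% lower for A and 45.6% lower for B. The hybrid carries near-identical copies of many genes, and 611 tested models shared their values in all 3 day 9 libraries with another model, so that levels of single copies within a family are uncertain.

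**Figure D1:**
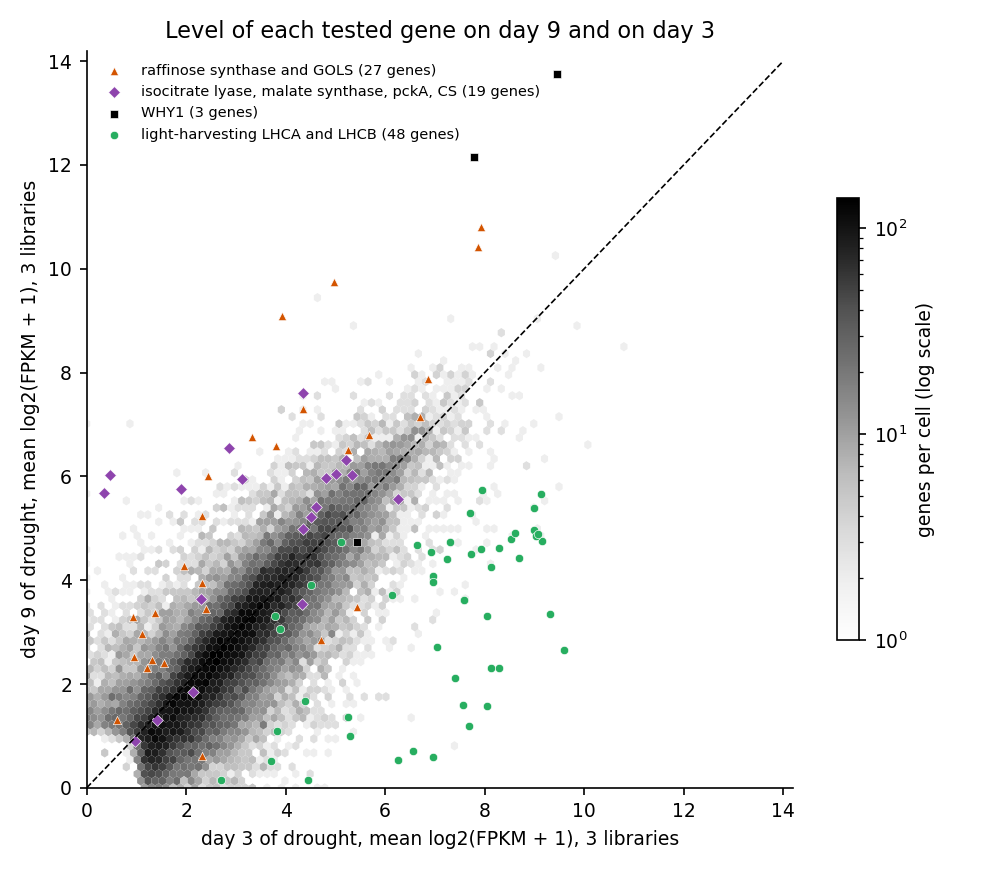
Level of each tested gene on day 9 (vertical axis) and on day 3 (horizontal axis), as the mean of log2(FPKM + 1) over 3 libraries, with grey cells shaded by the number of genes on a log scale and a dashed line of equal levels. The 48 light-harvesting genes lie below the line with LHCB7 nearest to it, and 2 of the 3 WHY1 genes lie far above it.

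The light reactions of photosynthesis held the deepest falls. All 48 tested genes for light-harvesting antenna proteins, which bind chlorophyll and pass on its energy, were lower on day 9, and their median log2 change was -3.80, against -0.16 for all genes. Their annotated genes together reached 638, 789 and 766 FPKM in the day 9 libraries, against 10326, 11728 and 10713 FPKM in the day 3 libraries. Every day 9 library lay far under every day 3 library. Of the 48 genes, 6 passed the filter through day 3 alone. In whole leaves, fewer cells of a type and less RNA per cell cannot be told apart.

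Within the antenna the fall was uneven. LHCB1, the main protein of the photosystem II antenna, had 11 tested genes that summed to 44 ± 12 FPKM on day 9 and 3275 ± 618 FPKM on day 3 (SD, n = 3 each), and their median log2 change was -5.97. Its member with the largest fall, Pag.A05G002416.v3.1, had 4.86, 4.6 and 6.76 FPKM in the day 9 libraries, against 575, 1305 and 606 FPKM in the day 3 libraries (log2 change -6.93 ± 0.30 SE, limma adjusted p = 3.1e-08). The second day 3 library was the highest by far, and all 3 stood far above day 9. Some LHCB1 models shared values, among them Pag.B05G002405.v3.1 and Pag.B05G002423.v3.1, which had the same 2.60, 5.05 and 4.50 FPKM on day 9. LHCB2, LHCA4, LHCA3 and LHCB5 followed with medians of -4.17, -4.29, -3.99 and -3.82. Pag.B14G001625.v3.1 of LHCB2 had 0.42, 0.63 and 0.46 FPKM on day 9, against 121, 123 and 130 FPKM on day 3. Pag.B15G000867.v3.1 of LHCA4, an antenna protein of photosystem I, kept 26.6, 30.4 and 29.5 FPKM on day 9, against 526, 548 and 547 FPKM on day 3. LHCB7, a minor relative of the antenna proteins, differed least: its 2 genes summed to 40 FPKM on day 9 and 55 FPKM on day 3, with a median of -0.49.

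**Figure D2:**
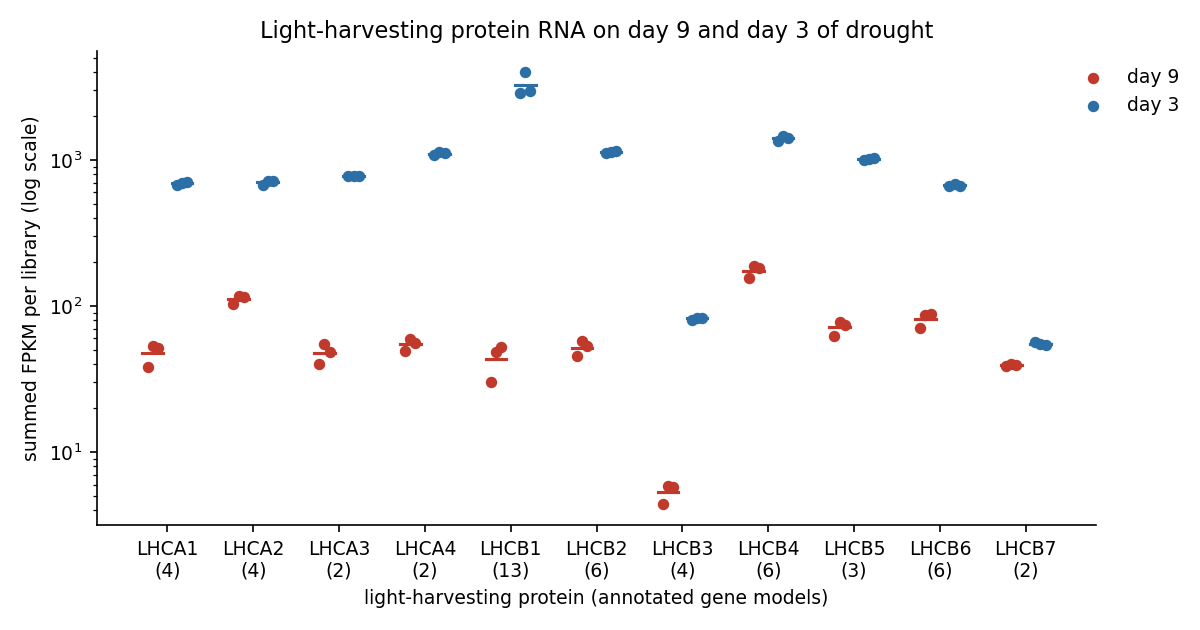
Summed FPKM per library (log scale) of the annotated genes of each light-harvesting protein on day 9 (red) and day 3 (blue), with points for libraries and bars for their means. All day 9 points lie below the day 3 points of the same protein, by most for LHCB1 and by least for LHCB7.

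Photosystem subunits fell alongside the antenna. Of 66 tested genes for subunits usually encoded in the nucleus, 0 were higher and 65 lower, with a median of -3.15, and their sums were 1655 ± 168 FPKM on day 9 and 16266 ± 439 FPKM on day 3 (SD, n = 3 each). Under median-ratio scaling 1 of them was called higher and 65 lower. The photosystem I subunit gene psaG (Pag.B11G000022.v3.1) was listed at 0 in every day 9 library, against 63.1, 71.1 and 66.5 FPKM in the day 3 libraries. A photosystem II subunit, psbR (Pag.A11G001566.v3.1), had 2.35, 4.2 and 2.52 FPKM on day 9, against 185, 212 and 215 FPKM on day 3. Another, psbW (Pag.A02G002342.v3.1), had 1.00, 3.33 and 2.90 FPKM on day 9, against 104, 111 and 109 FPKM on day 3. Separation of the days without overlap was a condition for naming these genes, and 76.5% of all tested genes met it. Of the 66 genes, 5 passed the filter through day 3 alone, psaG among them, and had to be lower on day 9. PsaD, which docks ferredoxin on photosystem I, kept more of its RNA: Pag.A10G001069.v3.1 had 89.8, 98.0 and 93.7 FPKM on day 9, against 809, 824 and 841 FPKM on day 3 (log2 change -3.12 ± 0.03 SE, limma adjusted p = 3.3e-14). The protective subunit psbS had a median of -1.85 over 2 genes. The 37 tested genes with names of the plastid's own genome stood apart from these, with 0 higher, 3 lower and a median of -0.21, but at 170 ± 30 FPKM on day 9 and 222 ± 56 FPKM on day 3 in sum they were scarce in these libraries.

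Genes of carbon capture fell, with exceptions by copy. Rubisco's small subunit (rbcS) fell in all 5 tested genes, which summed to 244 FPKM on day 9 and 2705 FPKM on day 3. Its gene Pag.A04G001052.v3.1 had 8.79, 10.9 and 8.97 FPKM on day 9, against 162, 167 and 156 FPKM on day 3. Carbonic anhydrase (cynT), which speeds the exchange of carbon dioxide and bicarbonate, had its largest falls in Pag.A01G002245.v3.1, at 8.02, 6.21 and 6.36 FPKM on day 9 against 241, 250 and 265 FPKM on day 3, and in Pag.B01G003631.v3.1, at 12.2, 12.3 and 11.4 FPKM on day 9 against 361, 367 and 379 FPKM on day 3. That gene gave the smallest p of any fall with an orthology name (log2 change -4.83 ± 0.04 SE, limma adjusted p = 7.6e-15). Of the family's 11 tested genes, 4 rose and 5 fell. All 9 tested genes of fructose bisphosphatase (FBP), a step of sucrose making and of the Calvin cycle, fell, and so did all 7 of the chloroplast glyceraldehyde phosphate dehydrogenase GAPA, with medians of -1.61 and -1.72. Phosphoribulokinase (PRK), which makes the acceptor of carbon dioxide, was split: Pag.B03G001207.v3.1 had 44.4, 47.0 and 46.2 FPKM on day 9, against 138, 139 and 140 FPKM on day 3, while Pag.B01G001412.v3.1 had 25.1, 22.4 and 22.2 FPKM on day 9, against 8.35, 7.99 and 8.20 FPKM on day 3. The first of these remained the higher copy on both days. Carbon fixation as a pathway, which also holds enzymes of the cytosol, had 51 of 163 genes higher and 88 lower, with a median of -0.43.

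Chlorophyll synthesis fell while genes of chlorophyll breakdown rose more often than they fell. The pathway of porphyrin metabolism had 22 of 112 genes higher and 79 lower, with a median of -0.91. Protochlorophyllide reductase (por), a light-driven late step, fell in 5 of 7 genes; Pag.B01G004254.v3.1 had 0.85, 1.29 and 1.28 FPKM on day 9, against 60.7, 60.5 and 63.8 FPKM on day 3. All 4 genes of the chelatase subunit chlH fell (median -2.80), as did all 4 of the cyclase acsF (median -3.25). Glutamyl-tRNA reductase (hemA), which opens the pathway for both chlorophyll and heme, was split by copy, with 4 genes higher and 2 lower. Pag.A09G000810.v3.1 had 17.3, 17.1 and 18.8 FPKM on day 9, against 4.34, 5.22 and 4.79 FPKM on day 3, while Pag.B02G001189.v3.1 had 7.51, 9.83 and 9.87 FPKM on day 9, against 66.9, 63.1 and 63.5 FPKM on day 3. Of 15 genes for chlorophyll breakdown, 10 rose and 2 fell, with a median of 0.55. They include pheophorbide a oxygenase (PAO), which opens the chlorophyll ring, with 3 of 4 genes higher, and the stay-green proteins (SGR) that take out its magnesium, with 3 of 6 higher and 2 lower. The stay-green gene Pag.A01G001309.v3.1 had 9.58, 9.00 and 9.49 FPKM on day 9, against 2.65, 3.82 and 4.14 FPKM on day 3, and Pag.B03G001397.v3.1 had 28.2, 30.2 and 30.5 FPKM on day 9, against 40.9, 41.1 and 40.6 FPKM on day 3.

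Genes of the glyoxylate bypass and of the making of sugar from its products were among the largest rises. Isocitrate lyase (aceA), which splits isocitrate, had 47.9, 68.3 and 80.4 FPKM in the day 9 libraries of Pag.A17G001417.v3.1, against 0.40, 0.48 and 0.28 FPKM in the day 3 libraries (log2 change 5.56 ± 0.15 SE, limma adjusted p = 3.4e-11). Its partner copy Pag.B17G001451.v3.1 had 39.8, 51.7 and 60.9 FPKM on day 9, against 0.37, 0.30 and 0.16 FPKM on day 3. In both, every day 3 library was under 1 FPKM, so that they passed the filter through day 9 alone, and the day 9 libraries spread widely. Malate synthase (aceB), the next enzyme of the bypass, rose in Pag.B15G000559.v3.1 to 193, 189 and 197 FPKM on day 9, against 20.01, 18.7 and 19.6 FPKM on day 3, and by a log2 change of 2.83 in Pag.A15G000523.v3.1. The other 2 tested malate synthase genes, Pag.B12G001127.v3.1 and Pag.B12G001128.v3.1, were below 8 FPKM in every library and did not pass the test. Phosphoenolpyruvate carboxykinase (pckA), which commits carbon from the citrate cycle to sugar, was split by copy. Pag.B07G001461.v3.1 had 51.7, 50.3 and 57.0 FPKM on day 9, against 2.73, 2.71 and 2.78 FPKM on day 3, and Pag.A07G001670.v3.1 rose by a log2 change of 3.69. Its other copies fell: Pag.A02G001629.v3.1 had 46.1, 48.9 and 44.8 FPKM on day 9, against 74.2, 75.8 and 76.3 FPKM on day 3, and Pag.B02G001187.v3.1 changed by -0.80. The genes beside those with the largest changes were added here to complete their families after their values were seen, and the same holds for the families below.

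The citrate cycle had the highest median of the 121 pathways with at least 20 tested genes, 0.35, with 75 of its 129 genes higher and 29 lower. All 8 tested genes of citrate synthase (CS), its entry, rose, with a median of 0.92 and sums of 391 FPKM on day 9 and 202 FPKM on day 3. Pag.A01G002679.v3.1 had 61.9, 60.1 and 61.8 FPKM on day 9, against 27.7, 27.8 and 26.1 FPKM on day 3. Both genes of the iron-sulfur subunit of succinate dehydrogenase (SDHB) rose, the higher of them, Pag.A01G003813.v3.1, to 152, 133 and 141 FPKM on day 9, against 43.8, 43.1 and 42.2 FPKM on day 3. The largest fall in the pathway was a malate dehydrogenase (MDH2), Pag.A01G003308.v3.1, at 3.38, 5.8 and 4.92 FPKM on day 9, against 45.7, 45.8 and 44.9 FPKM on day 3, though 10 of the 16 genes of that name rose.

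Of the respiratory chain, the pathway of oxidative phosphorylation had 99 of 254 genes higher and 81 lower, with a median of 0.04, and 134 higher and 60 lower under median-ratio scaling. Cytochrome c (CYC), the carrier of electrons between complexes, rose in all 6 genes, with a median of 1.69 and sums of 328 FPKM on day 9 and 93 FPKM on day 3. Mitochondrial phosphate carriers (SLC25A3), which bring in the phosphate that becomes ATP, rose in 9 of 10 genes. The largest called rise, in ND4 (Pag.B07G001775.v3.1), a subunit that mitochondria encode, rested on uneven libraries of 2.43, 27.9 and 3.11 FPKM on day 9, against 0.24, 0.70 and 0.60 FPKM on day 3. Its call (log2 change 2.31 ± 0.69 SE, limma adjusted p = 0.014) was lost when only the 6 libraries were fitted. The gene atpA (Pag.A14G002059.v3.1), a subunit of the ATP synthase, was listed at 0 on day 9, against 12.7, 3.45 and 9.18 FPKM on day 3. Having passed the filter through day 3 alone, atpA had to be lower on day 9.

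Proline dehydrogenase (PRODH), the first enzyme of proline breakdown, rose in all 3 tested genes. Pag.B17G000516.v3.1 had 715, 765 and 777 FPKM on day 9, against 94.8, 93.3 and 91.2 FPKM on day 3 (log2 change 3.00 ± 0.04 SE, limma adjusted p = 5.9e-14). All day 9 libraries were far above all day 3 libraries. The synthesis enzyme P5CS also rose in all 4 genes, but by less, with a median of 0.40 and sums of 48 FPKM on day 9 and 33 FPKM on day 3. A branched-chain keto acid dehydrogenase subunit (BCKDHA), which breaks down leucine, isoleucine and valine, rose in all 4 genes, led by Pag.B05G001863.v3.1 at 72.9, 68.3 and 68.5 FPKM on day 9 against 14.21, 15.4 and 15.7 FPKM on day 3. The pathway as a whole had 42 of 110 genes higher and 43 lower, against 51 and 34 under median-ratio scaling, where its median of -0.0025 became 0.18. Fatty acid degradation had 44 of 111 genes higher and 49 lower, with a median of -0.12 that became 0.08 under median-ratio scaling. Within it an acyl-CoA synthetase (ACSL), Pag.B01G003331.v3.1, had 49.4, 43.2 and 44.0 FPKM on day 9, against 8.25, 9.6 and 8.12 FPKM on day 3, while an aldehyde dehydrogenase (ALDH), Pag.A15G000716.v3.1, had 3.45, 4.80 and 3.81 FPKM on day 9, against 35.2, 32.8 and 32.6 FPKM on day 3.

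**Figure D3:**
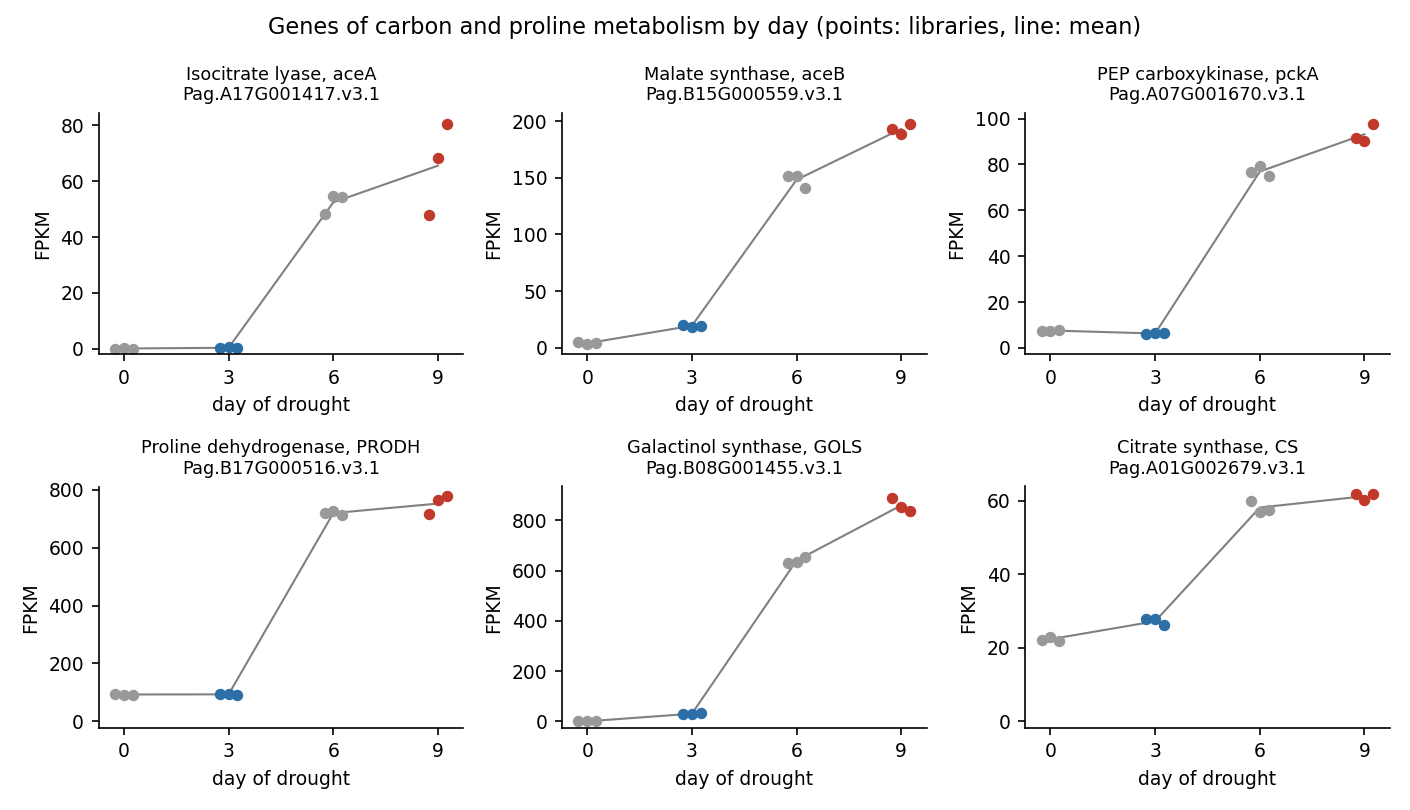
FPKM of 6 genes of carbon and proline metabolism in each library of days 0, 3, 6 and 9, with red for day 9, blue for day 3, grey for the other days and a line through the daily means. In each panel the day 9 libraries lie above the day 3 libraries, and day 6 lies close to day 9.

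Genes of raffinose-family sugars rose strongly. The list of osmolyte synthesis had 30 of 37 genes higher and 5 lower, with a median of 1.08. Of the 37, 2 passed the filter through day 9 alone and 1 through day 3 alone. The list's annotated genes summed to 6808, 6382 and 6426 FPKM in the day 9 libraries, against 1859, 1852 and 1854 FPKM in the day 3 libraries. Galactinol synthase (GOLS) makes the galactose donor, and 10 of its 13 genes rose. The GOLS gene Pag.A08G001549.v3.1 had 555, 543 and 525 FPKM on day 9, against 13.4, 15.3 and 13.8 FPKM on day 3 (log2 change 5.16 ± 0.06 SE, limma adjusted p = 2.9e-14), and Pag.B08G001455.v3.1 had 890, 853 and 835 FPKM on day 9, against 29.8, 29.6 and 31.5 FPKM on day 3. Neither gene reached 1 FPKM on average on day 0. The falls included Pag.A08G000608.v3.1, at 10.4, 10.1 and 10.0 FPKM on day 9 against 42.2, 43.8 and 41.4 FPKM on day 3, a model that also carries the name of a pantothenate kinase. Raffinose synthase (E2.4.1.82), the next step, rose in all 14 tested genes, with a median of 1.71 and sums of 3586 FPKM on day 9 and 590 FPKM on day 3. Of the 14, 2 passed the filter through day 9 alone and had to be higher there. The family had 6 further annotated models, listed at 0 in all 6 libraries. Its most abundant gene, Pag.B06G002363.v3.1, had 1924, 1698 and 1748 FPKM on day 9, against 248, 234 and 244 FPKM on day 3. Inositol phosphate synthase (INO1), which feeds the same route, had 1 of 4 genes higher and 2 lower, with sums of 773 FPKM on day 9 and 838 FPKM on day 3.

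Sugar carriers changed copy by copy. Of 16 SWEET genes, which let sugars out of cells, 5 rose and 10 fell, while their sum was 1044 ± 35 FPKM on day 9 and 359 ± 1 FPKM on day 3 (SD, n = 3 each). The rise was in few genes: Pag.B01G000717.v3.1 had 276, 266 and 293 FPKM on day 9, against 11.4, 11.1 and 11.4 FPKM on day 3, and Pag.A01G000814.v3.1 had 540, 515 and 551 FPKM on day 9, against 25.02, 24.4 and 22.3 FPKM on day 3. Pag.B13G000132.v3.1 went the other way, at 7.88, 13.5 and 12.0 FPKM on day 9 against 93.9, 95.7 and 94.6 FPKM on day 3. A monosaccharide importer named STP, Pag.B10G000808.v3.1, had 486, 466 and 491 FPKM on day 9, against 43.2, 42.6 and 44.1 FPKM on day 3.

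Starch and sucrose metabolism had 82 of 286 genes higher and 165 lower, with a median of -0.39. The share that rose was near the 29.4% of all tested genes, and the share that fell was above their 45.2%. Of the 286, 25 passed the filter through day 3 alone and 9 through day 9 alone. Under median-ratio scaling 95 rose and 141 fell. Beta-amylase (E3.2.1.2), which trims starch to maltose, had 11 of 24 genes higher and 10 lower; Pag.B17G001409.v3.1 had 5.52, 11.6 and 10.2 FPKM on day 9, against 158, 164 and 153 FPKM on day 3. Alpha-amylase (AMY) rose in 8 of 11 genes and fell in 1. Starch synthase (glgA) fell in 7 of 10 genes and rose in 2. Trehalose phosphate phosphatase (otsB) rose in 10 of 15 genes, led by Pag.B12G000367.v3.1 at 38.8, 34.9 and 36.7 FPKM on day 9 against 3.46, 2.58 and 2.94 FPKM on day 3, whereas trehalose phosphate synthase (TPS), the step before it, rose in 4 of 23 genes and fell in 15.

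Genes of abscisic acid synthesis separated into copies that rose and copies that fell. Of 31 tested genes 11 rose and 20 fell, with a median of -0.62, and 5 of them passed the filter through day 3 alone and 1 through day 9 alone. The rate-limiting enzyme, 9-cis-epoxycarotenoid dioxygenase (NCED), had 4 genes higher and 4 lower, and 5 of its 13 annotated models were not tested. Pag.A01G004369.v3.1 had 122, 104 and 108 FPKM on day 9, against 21.7, 20.6 and 20.8 FPKM on day 3 (log2 change 2.35 ± 0.07 SE, limma adjusted p = 5.9e-11). Pag.B11G000660.v3.1 had 194, 185 and 176 FPKM on day 9, against 96.5, 92.0 and 95.0 FPKM on day 3, and Pag.B01G004146.v3.1 and Pag.A11G001240.v3.1 changed by 1.68 and 0.35. The libraries of the days did not overlap in any of the 4, as in 76.5% of all tested genes. Among those that fell, Pag.B19G001289.v3.1 had 0.74, 2.35 and 0.89 FPKM on day 9, against 42.4, 42.7 and 45.6 FPKM on day 3. Its counterpart Pag.A19G001152.v3.1 had 1.44, 1.71 and 1.47 FPKM on day 9, against 34.9, 32.6 and 36.2 FPKM on day 3. The last pair, Pag.A05G000694.v3.1 and Pag.B05G000729.v3.1, stayed below 4 FPKM in all 6 libraries of days 9 and 3, and both passed the filter through day 3 alone. In sum, NCED RNA was higher on day 9, at 530, 493 and 496 FPKM, against 318, 312 and 325 FPKM on day 3. On day 0 the 4 genes that fell had means of 4.05 to 63.1 FPKM, and the 4 that rose had means of 1.04 to 2.31 FPKM.

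The other steps of synthesis were mixed. The carotenoid hydroxylase crtZ rose in 4 of 7 genes, with Pag.B01G001076.v3.1 at 17.8, 15.3 and 16.6 FPKM on day 9 against 1.24, 1.64 and 1.37 FPKM on day 3, and fell in 3. Both genes of the alcohol dehydrogenase ABA2 and both of ABA3, late in the pathway, fell, and aldehyde oxidase (AAO3), the last step, rose in 1 of 3 genes and fell in 2. All 3 tested genes of violaxanthin de-epoxidase (VDE), which diverts the precursor toward zeaxanthin, fell.

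The breakdown enzyme CYP707A, which hydroxylates abscisic acid, showed the same division. Of 11 tested genes 5 rose and 4 fell, with a median of -0.04 that became 0.17 under median-ratio scaling. Of the 11, 2 passed the filter through day 3 alone, Pag.B02G001406.v3.1 among them, and had to be lower on day 9. Pag.A01G002806.v3.1 had 29.6, 24.7 and 27.9 FPKM on day 9, against 1.52, 1.04 and 1.79 FPKM on day 3, and Pag.A09G000355.v3.1 had 62.1, 51.9 and 54.2 FPKM on day 9, against 5.94, 4.65 and 5.13 FPKM on day 3. By contrast Pag.B02G001406.v3.1 had 0, 0.13 and 0.21 FPKM on day 9, against 12.5, 12.7 and 13.8 FPKM on day 3. The family summed to 259, 231 and 240 FPKM on day 9, against 109, 113 and 109 FPKM on day 3.

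**Figure D4:**
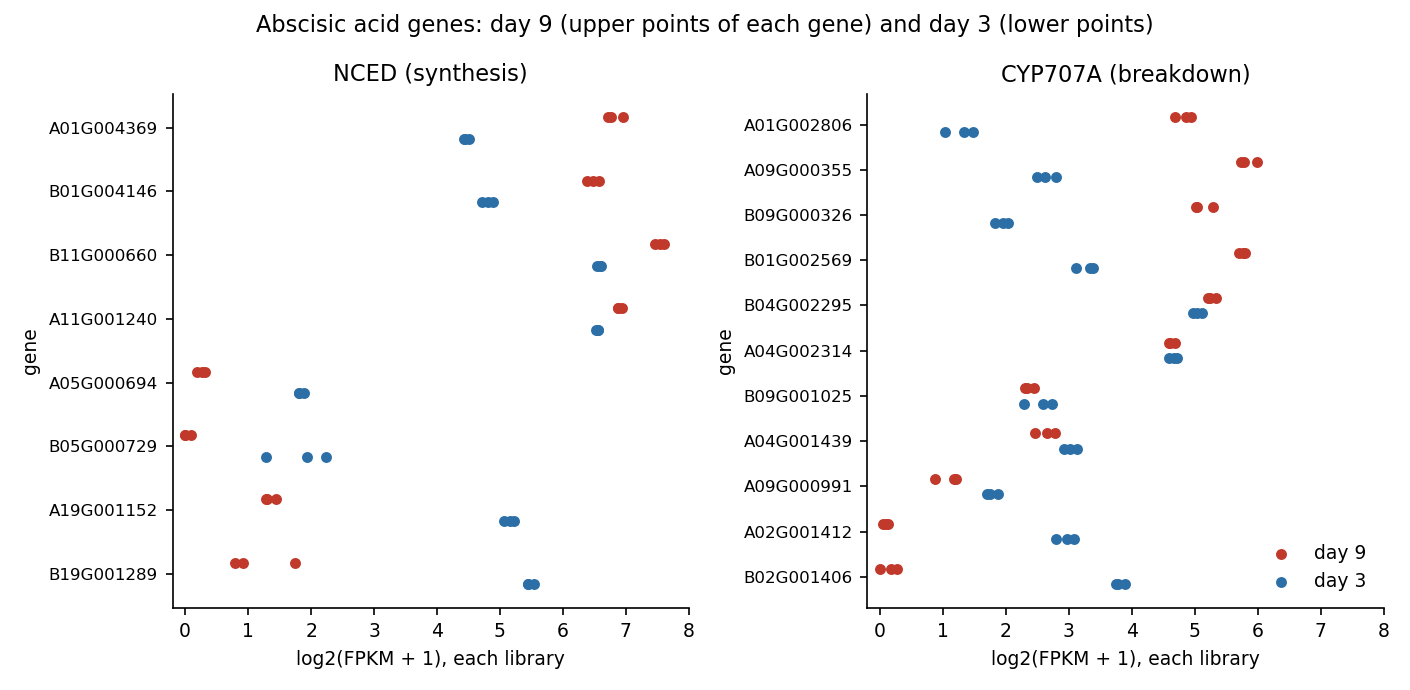
The log2(FPKM + 1) of the tested NCED genes (left, synthesis) and CYP707A genes (right, breakdown) of abscisic acid in each library, with day 9 in red above day 3 in blue for each gene, ordered by log2 change. The 4 upper NCED genes were higher on day 9 and the 4 lower ones were lower, and CYP707A ran between the same extremes.

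Downstream of the hormone, receptors and phosphatases leaned in opposite directions. PYL receptors rose in 3 of 16 genes and fell in 12, with a median of -0.64, though 4 of the 16 passed the filter through day 3 alone; Pag.B14G000896.v3.1 had 10.8, 13.0 and 12.4 FPKM on day 9, against 31.8, 31.8 and 33.5 FPKM on day 3. The PP2C phosphatases that they inhibit rose in 16 of 28 genes and fell in 10, with a median of 0.95, and under median-ratio scaling fell in 6. Pag.A15G001279.v3.1 had 107, 92.7 and 97.2 FPKM on day 9, against 8.65, 9.01 and 8.13 FPKM on day 3 (log2 change 3.38 ± 0.07 SE, limma adjusted p = 3.4e-12). The largest fall among the phosphatases with at least 5 FPKM was 0.91 on the log2 scale, in Pag.A18G001005.v3.1. SnRK2 kinases, which the phosphatases hold in check, rose in 11 of 26 genes and fell in 9, with a median of 0.10, and under that scaling rose in 14 and fell in 6. Pag.B02G001087.v3.1 had 20.8, 22.8 and 21.5 FPKM on day 9, against 5.59, 6.01 and 5.07 FPKM on day 3. The ABF transcription factors at the end of the chain had 10 of 23 genes higher and 8 lower, and their median of -0.17 became 0.01 under median-ratio scaling. The ABF gene with the largest fall, Pag.A02G002602.v3.1, had 1.73, 3.21 and 2.65 FPKM on day 9, against 16, 13.6 and 16.2 FPKM on day 3. MAPKKK17_18, kinases of abscisic acid signalling in Arabidopsis, rose in all 8 tested genes, 4 of which passed the filter through day 9 alone. They summed to 158 ± 6 FPKM on day 9 and 63.6 ± 2.1 FPKM on day 3 (SD, n = 3 each). The ubiquitin ligase AIRP2 (Pag.B06G001916.v3.1), a positive regulator of the response in Arabidopsis, had 30.7, 25.5 and 28.0 FPKM on day 9 and was listed at 0 in all 3 day 3 libraries. AIRP2 passed the filter through day 9 alone and so had to be higher there.

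Ethylene genes leaned higher, with 71 of 126 genes higher and 42 lower and a median of 0.35; 9 of the 126 passed the filter through day 9 alone and 4 through day 3 alone. The rate-limiting synthase of its precursor, ACS1_2_6, rose in 4 of 5 genes. Pag.B02G001770.v3.1 had 110, 101 and 103 FPKM on day 9, against 3.18, 2.84 and 2.60 FPKM on day 3 (log2 change 4.77 ± 0.08 SE, limma adjusted p = 5.9e-13), and Pag.A02G001057.v3.1 had 47.0, 40.2 and 47.3 FPKM on day 9, against 1.09, 0.81 and 0.52 FPKM on day 3. ERF1, a transcription factor at the head of the response, rose in all 4 tested genes, 2 of them passed through day 9 alone, which reached 8.57 to 16.1 FPKM in the day 9 libraries and 0.28 to 1.95 FPKM in the day 3 libraries. Its wider family, EREBP, rose in 37 of 67 genes and fell in 19. EIN3, the master regulator above them, was mixed, with 5 of 11 genes higher and 6 lower.

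Auxin genes divided by family. The repressors named IAA fell in 39 of 45 genes and rose in 4 (median -1.39), the importers AUX1 fell in 8 of 11 and rose in 3, and the receptor TIR1 fell in all 6. SAUR genes, short growth-related proteins, rose in 20 of 38 and fell in 10 (median 0.81), and GH3 enzymes, which tie auxin to amino acids, rose in 7 of 12 and fell in 4. The GH3 gene Pag.A01G003411.v3.1 had 27.4, 23.8 and 25.9 FPKM on day 9, against 1.85, 2.30 and 2.07 FPKM on day 3. The largest fall was nevertheless a SAUR gene, Pag.A04G001679.v3.1, at 0.31, 1.36 and 0.39 FPKM on day 9 against 43.8, 44.6 and 35.8 FPKM on day 3. Of the 112 genes, 17 passed the filter through day 3 alone and 7 through day 9 alone.

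Brassinosteroid synthesis had 0 of 23 genes higher and 22 lower, with a median of -1.59. Of the 23, 3 passed the filter through day 3 alone, and under median-ratio scaling 1 was higher and 22 lower. The rate-limiting enzyme DWF4 fell in all 4 tested genes, 1 of which passed the filter through day 3 alone. Pag.B07G001319.v3.1 of DWF4 had 1.03, 2.20 and 1.85 FPKM on day 9, against 27.4, 27.1 and 26.9 FPKM on day 3. CPD, another enzyme of the pathway, fell in 3 of 4, and the fourth, Pag.B10G001800.v3.1, had 14.5, 15.2 and 15.1 FPKM on day 9, against 14.1, 13.95 and 14.3 FPKM on day 3. Cytokinin response genes rose in 4 of 52 and fell in 40, with a median of -0.68, and 10 of the 52 passed the filter through day 3 alone. All 6 genes of its early-response regulators (ARR-A) fell, as did 20 of 24 of the ARR-B factors. DELLA proteins, which restrain gibberellin growth, fell in 12 of 16 genes and rose in 1.

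Jasmonate and salicylate genes showed no common direction. Jasmonate genes rose in 13 of 37 and fell in 22; the repressor JAZ was even, with 11 higher and 10 lower, while the factor MYC2 fell in 6 of 8 genes and rose in 1. The JAZ gene Pag.B03G000889.v3.1 had 73.0, 71.7 and 75.8 FPKM on day 9, against 7.87, 6.93 and 7.49 FPKM on day 3, and the MYC2 gene Pag.A14G001033.v3.1 had 0.57, 1.34 and 0.83 FPKM on day 9, against 8.80, 7.02 and 9.02 FPKM on day 3. The list of salicylate and defence genes had 29 of 78 higher and 31 lower, with a median of -0.03 that became 0.15 under median-ratio scaling, with 38 higher and 20 lower there. Its salicylate coactivator NPR1 fell in 8 of 10 genes and rose in none, and the pathogenesis protein PR1 rose in 2 of 3. Chitinases, which attack fungal walls, were split by class: E3.2.1.14 rose in 13 of 20 and fell in 6, and CHIB fell in 3 of 4. The most abundant CHIB gene of day 3, Pag.B09G001415.v3.1, had 370, 581 and 528 FPKM on day 9, against 1644, 1729 and 1662 FPKM on day 3.

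Heat shock proteins moved unevenly. Small heat shock proteins (HSP20), which hold unfolding proteins, rose in 19 of 40 genes and fell in 9, with a median of 0.44; 5 of the 40 passed the filter through day 9 alone, as the next gene did, and 2 through day 3 alone. Pag.A06G002088.v3.1 had 8.18, 10.8 and 9.66 FPKM on day 9 and was listed at 0 on day 3, and Pag.B03G000909.v3.1 had 3.2, 3.6 and 6.36 FPKM on day 9, against 33.9, 50.8 and 47.9 FPKM on day 3. The larger chaperones had 21 of 47 genes higher and 17 lower, with a median of -0.05 that turned to 0.14 under median-ratio scaling, with 26 higher and 10 lower there. BIP, the chaperone of the endoplasmic reticulum, rose in all 4 tested genes, by log2 changes of 0.17 to 0.88. Heat shock factors had 16 of 41 higher and 11 lower, with a median of -0.01 that became 0.13 under that scaling.

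Protein turnover differed by component. Autophagy genes rose in 31 of 104 and fell in 40, and under median-ratio scaling rose in 45 and fell in 25, with the median going to 0.11 there against -0.06. ATG9 and ATG4, which supply membrane and process ATG8, each rose in all 4 genes, while ATG3 fell in all 4. The ATG8 gene Pag.A10G001703.v3.1, which coats the forming vesicle, had 88.7, 79.7 and 89.8 FPKM on day 9, against 16.6, 19.3 and 17.41 FPKM on day 3. Proteasome genes rose in 57 of 147 and fell in 30, with a median of 0.08, and under median-ratio scaling rose in 96 and fell in 16. The largest of these falls was a core subunit, PSMA4 (Pag.A06G002978.v3.1), at 39.2, 49.7 and 46.8 FPKM on day 9 against 230, 236 and 238 FPKM on day 3.

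Ribosomal proteins of the cytosol and of organelles parted. Cytosolic ribosomal proteins rose in 208 of 423 genes and fell in 72, or 300 and 34 under median-ratio scaling, with a median of 0.16, and their sums were 21388 ± 690 FPKM on day 9 and 18922 ± 573 FPKM on day 3 (SD, n = 3 each). Organelle-type ribosomal proteins rose in 18 of 226 genes and fell in 134, with a median of -0.55 and sums of 2128 ± 52 FPKM on day 9 and 4346 ± 64 FPKM on day 3. Their largest fall, RP-S5 (Pag.A04G000482.v3.1), had 11.2, 15.1 and 14.3 FPKM on day 9, against 77.6, 74.6 and 81.1 FPKM on day 3. Ribosome biogenesis had 76 of 182 genes higher and 35 lower, and the spliceosome had 147 of 413 higher and 131 lower, with medians of 0.14 and 0.03. Under median-ratio scaling ribosome biogenesis had 111 higher and 19 lower, and the spliceosome 215 higher and 59 lower.

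Enzymes against reactive oxygen fell more often than they rose. Of 63 tested genes 11 rose and 46 fell, with a median of -0.62. Copper-zinc superoxide dismutase (SOD1) fell in all 11 genes, the class named SOD2 in all 6, and dehydroascorbate reductase (DHAR) in all 6. A peroxiredoxin, PRDX6 (Pag.A08G001560.v3.1), was listed at 0 in all 3 day 9 libraries, against 21.6, 24.5 and 23.4 FPKM on day 3. PRDX6 passed the filter through day 3 alone and so had to be lower on day 9. Its mean on day 0 was 556 FPKM. Catalase, which breaks down hydrogen peroxide, was nearly level where it was abundant, in Pag.B02G000111.v3.1, at 476, 477 and 492 FPKM on day 9 against 443, 446 and 453 FPKM on day 3, a change smaller than the shift between scalings. Glutathione peroxidase (gpx) Pag.A01G001227.v3.1 had 97.1, 91.3 and 104 FPKM on day 9, against 34.6, 31.4 and 35.6 FPKM on day 3. Glutathione transferases, which tag toxic compounds, rose in 19 of 56 genes and fell in 32; Pag.B19G001533.v3.1 had 147, 161 and 168 FPKM on day 9, against 11.3, 15.2 and 14.7 FPKM on day 3, and Pag.B02G002324.v3.1 had 98.8, 122 and 118 FPKM on day 9, against 1102, 1150 and 1103 FPKM on day 3.

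Water channels differed by family, with 19 of the 59 tested aquaporin genes higher and 35 lower. Over all tested genes 29.4% were higher and 45.2% lower. Plasma membrane aquaporins (PIP) rose in 12 of 25 genes and fell in 11 (median 0.13), and their annotated genes summed to 6110, 5390 and 5578 FPKM on day 9, against 3366, 3396 and 3432 FPKM on day 3. Vacuolar ones (TIP) rose in 5 of 22 genes and fell in 16 (median -1.69), yet summed to 980, 923 and 947 FPKM on day 9, against 973, 976 and 998 FPKM on day 3. The PIP gene Pag.A06G001708.v3.1 had 117, 92.5 and 95.2 FPKM on day 9, against 5.09, 5.96 and 4.56 FPKM on day 3. The TIP gene Pag.B16G000498.v3.1 had 4.26, 5.21 and 5.33 FPKM on day 9, against 104, 101 and 106 FPKM on day 3.

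Genes that build and loosen the growing wall leaned lower. Cellulose synthase (CESA) fell in 32 of 33 genes and rose in none, with a median of -1.18, and 6 of the 33 passed the filter through day 3 alone. Wall-loosening enzymes rose in 34 of 118 genes and fell in 72, with a median of -0.59, and 37 of the 118 had passed the filter through a single day (24 through day 3, 13 through day 9). Xyloglucan transferase (E2.4.1.207), which cuts and rejoins wall chains, had the deepest fall in Pag.A07G001646.v3.1, at 0.91, 2.04 and 1.76 FPKM on day 9 against 91.4, 91.3 and 90.5 FPKM on day 3 (log2 change -5.19 ± 0.15 SE, limma adjusted p = 1.6e-10). Polygalacturonase (E3.2.1.15), which cuts pectin, rose in 6 of 7 tested genes, 4 of which passed the filter through day 9 alone, and 26 of its 42 models were listed at 0 in all 6 libraries. Pag.B09G000592.v3.1 had 11.9, 13.4 and 13.5 FPKM on day 9, against 0.23, 0.05 and 0.22 FPKM on day 3. UDP-xylose synthase (UXS1), which makes a nucleotide sugar for the wall, rose in 9 of 11 genes and fell in 2.

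The phenylpropanoid pathway, the source of lignin, had 67 of 175 genes higher and 69 lower, with a median of -0.07 that became 0.08 under median-ratio scaling. Cinnamoyl-CoA reductase (CCR), the entry to lignin, rose in all 8 genes with a median of 1.05. A gene that the tables name K22395 and place in this pathway, Pag.A06G001691.v3.1, had 549, 530 and 594 FPKM on day 9, against 28.1, 25.8 and 28.1 FPKM on day 3, and its copy Pag.B06G001593.v3.1 had 3060, 2731 and 2853 FPKM on day 9, against 243, 239 and 243 FPKM on day 3. A peroxidase (E1.11.1.7), Pag.B04G000152.v3.1, fell to 18.3, 24.5 and 23.0 FPKM on day 9, against 666, 699 and 701 FPKM on day 3. The largest rise of any gene with an orthology name was in the laccase family (E1.10.3.2), copper enzymes that can join lignin units. Pag.B05G002004.v3.1 had 124, 167 and 169 FPKM on day 9, against 0.04, 0.07 and 0 FPKM on day 3 (log2 change 7.21 ± 0.12 SE, limma adjusted p = 5.6e-13). That gene passed the filter through day 9 alone and so had to be higher there. In the branch to tannins, leucoanthocyanidin reductase (LAR) rose in all 4 genes and dihydroflavonol reductase (DFR) in all 3, although the flavonoid list as a whole had 26 of 62 genes higher and 25 lower, with a median of -0.04 that became 0.15 under median-ratio scaling. Cutin, suberin and wax genes had 20 of 43 higher and 17 lower, led by a peroxygenase (PXG), Pag.B10G000554.v3.1, at 144, 136 and 149 FPKM on day 9 against 14.8, 16.4 and 16.03 FPKM on day 3. Terpene synthases named GERD, makers of the volatile germacrene D, fell in 9 of 10 genes; Pag.B08G000172.v3.1, which also carries the name E4.2.3.8, had 0.09, 1.09 and 0.31 FPKM on day 9, against 66.0, 69.1 and 66.1 FPKM on day 3.

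Histones and tubulins fell in a larger share than all tested genes, of which 45.2% were lower and 29.4% higher. Histones fell in 52 of 75 genes and rose in 6, with a median of -0.62. The linker histone H1_5, which closes chromatin, summed to 97.1, 148 and 134 FPKM on day 9 over its annotated genes, against 1271, 1329 and 1313 FPKM on day 3. Its gene Pag.A05G001203.v3.1 had 6.95, 9.58 and 10.8 FPKM on day 9, against 123, 130 and 130 FPKM on day 3. Tubulins fell in 27 of 40 genes and rose in 4, or in 25 and 8 under median-ratio scaling, with Pag.A16G001144.v3.1 of TUBB at 2.93, 4.55 and 4.52 FPKM on day 9 against 45.8, 44.1 and 44.7 FPKM on day 3. Genes of DNA replication had 16 of 64 higher and 30 lower, with a median of -0.21, and under median-ratio scaling 20 higher and 21 lower. Their shares as deposited were near those of all genes.

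Of 34 tested clock genes 11 rose and 19 fell, and under median-ratio scaling 14 rose and 18 fell. As deposited, the share that rose was near the 29.4% of all genes, and the share that fell was above their 45.2%. All 4 tested genes of LHY, the morning repressor, passed the filter through day 9 alone and so had to be higher there, with Pag.A02G000869.v3.1 at 5.46, 4.19 and 4.76 FPKM on day 9 against 0.70, 0.58 and 0.67 FPKM on day 3. ELF3 and PRR7, evening and daytime repressors, each fell in all 4. The light sensor FKF1 fell most in Pag.B08G001109.v3.1, at 5.88, 10.2 and 8.44 FPKM on day 9 against 32.3, 29.7 and 31.0 FPKM on day 3. No label states the hour at which leaves were taken, and its part in these values was not tested.

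Markers of leaf cell types bear on the label. The defining markers of mesophyll, the light-harvesting proteins and rbcS, were present on both days, but summed to 860 to 1058 FPKM in the day 9 libraries and 12987 to 14480 FPKM in the day 3 libraries over 60 annotated genes, a mean of 0.138% of all FPKM on day 9 and 1.87% on day 3. All 53 tested were lower. FAMA directs the last division of the guard cell line, and its 4 genes passed the filter through day 3 alone, so that they had to be lower on day 9. They came to 1.05 to 1.93 FPKM in sum on day 9, against 14.1 to 15.99 FPKM on day 3. The joint name SLAC1, SLAH does not tell SLAC1, which lets anions out as stomata close, from its SLAH homologues. Genes of that name rose in 2 of 3 tested, with Pag.A15G001210.v3.1 at 24.5, 21.7 and 23.1 FPKM on day 9 against 2.27, 2.54 and 2.42 FPKM on day 3. Of the 26 annotated guard cell genes 13 were listed at 0 in all 6 libraries, and SPCH, the founder of the lineage, never passed 0.03 FPKM.

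Vascular and secondary wall markers rose in 18 of 41 tested genes and fell in 13, with sums of 826 to 868 FPKM on day 9 and 270 to 296 FPKM on day 3 over 94 annotated genes, 20 of which were at 0 in all 6 libraries. Of the 41, 7 passed the filter through day 9 alone and 4 through day 3 alone, and these 11 had to differ. Laccases made most of that difference, at 517 to 555 FPKM on day 9 and 49.4 to 54.3 FPKM on day 3. SND1, which switches on fibre walls, rose in all 5 genes, whereas XCP, a protease of dying xylem, fell in 5 of 6. Cellulose synthase (CESA), whose secondary wall members were planned as markers, is not in this list. Nearly all of its tested genes fell, as described above for the growing wall. Markers of dividing cells were low on both days, at 89.4 to 102.6 FPKM on day 9 and 110 to 118 FPKM on day 3 over 77 annotated genes, with 5 of 25 tested genes higher and 14 lower. Of the 25, 5 passed the filter through day 3 alone, and under median-ratio scaling 6 were higher and 9 lower. The part of a changed cell makeup in the results above was not tested.

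**Figure D5:**
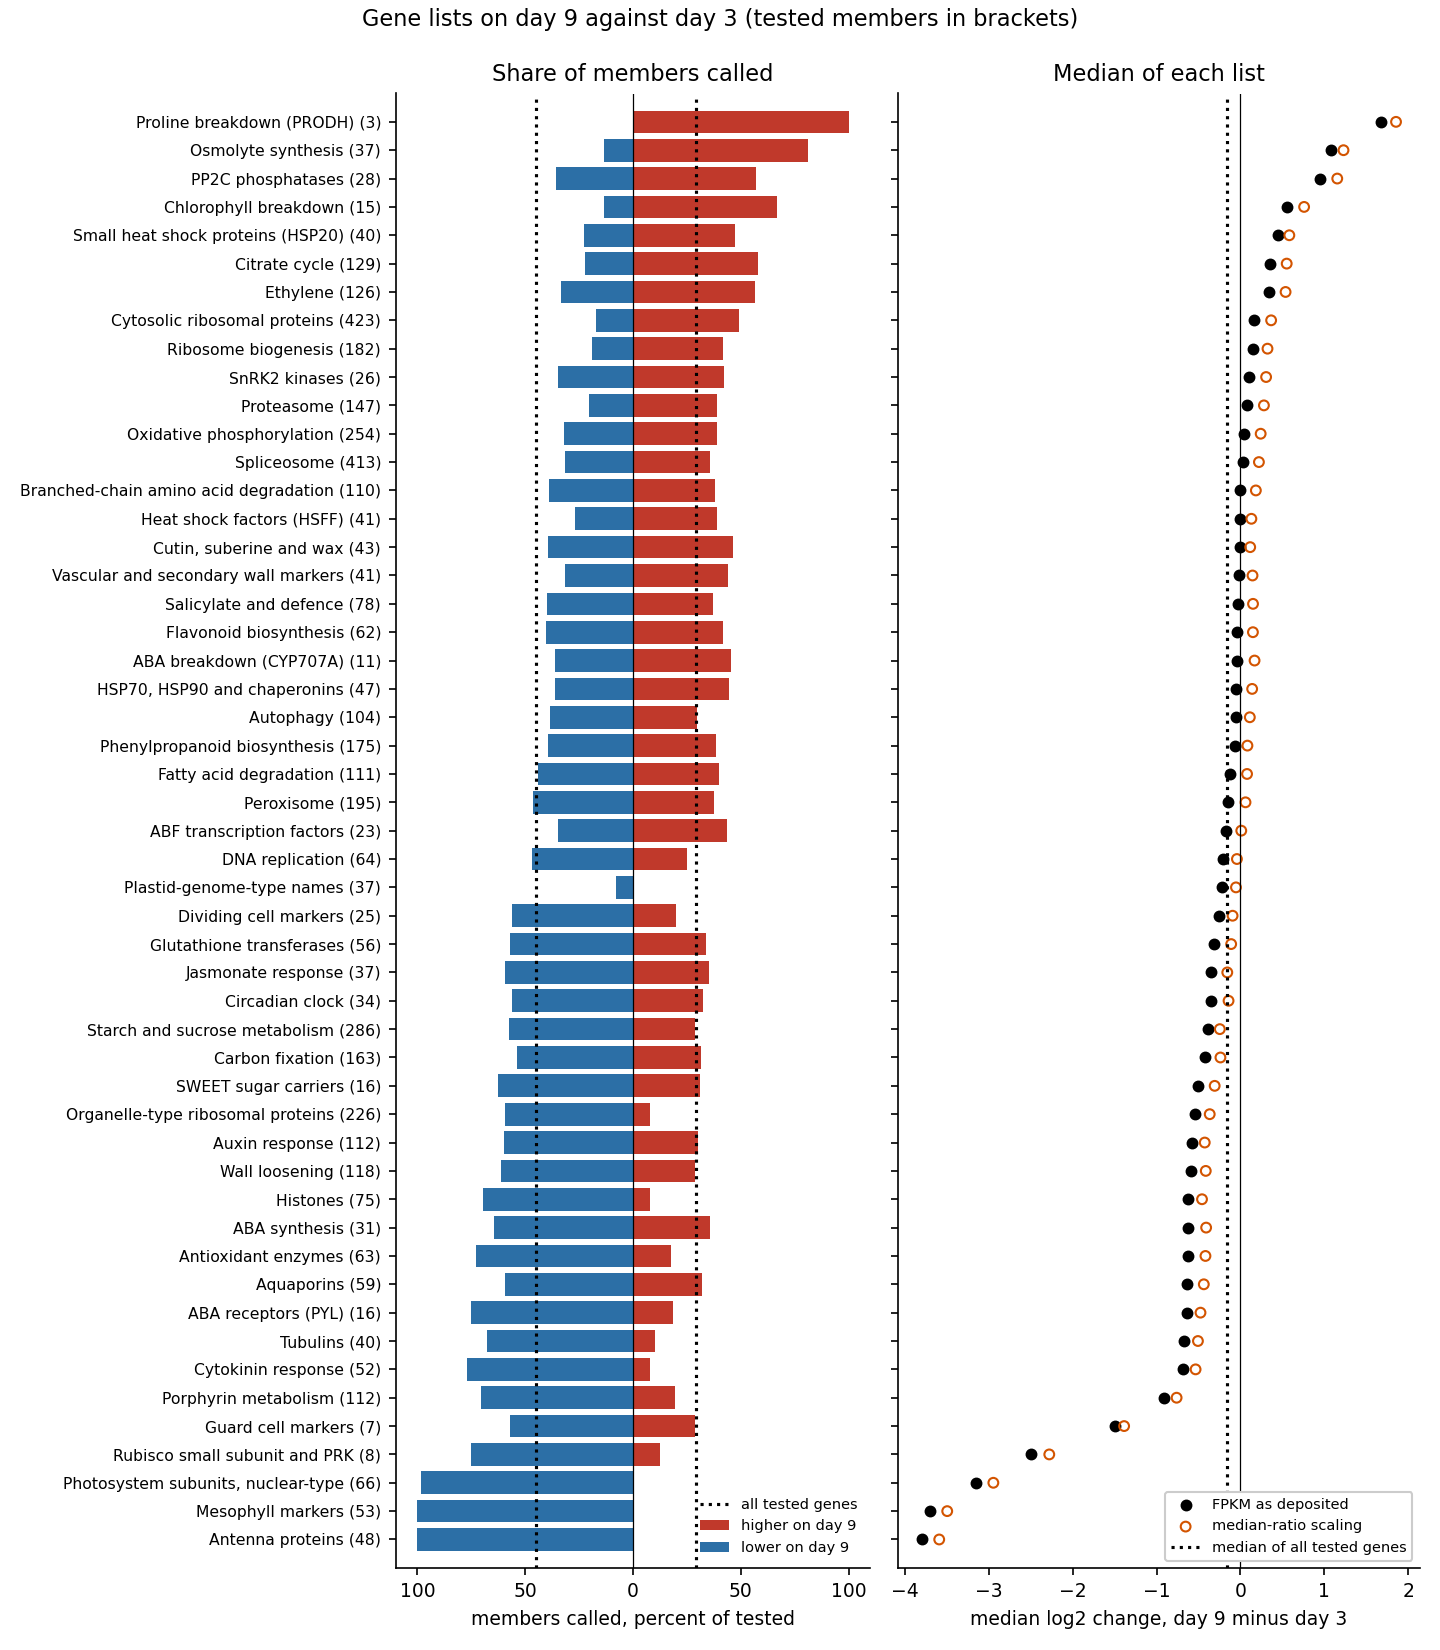
Gene lists ordered by their median log2 change, day 9 minus day 3. Left, the percent of tested members called higher (red) and lower (blue) on day 9, with dotted lines at the 29.4% and 45.2% of all tested genes; right, medians as deposited (black) and after median-ratio scaling (open), with a dotted line at the all-gene median of -0.16.

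Other large rises lay outside these groups. The most abundant RNA of day 9 carried the orthology name WHY1, with the gene ontology terms defense response, single-stranded DNA binding and oxidoreductase activity. Whether the name fits the protein was not tested. Pag.B08G000961.v3.1 had 14473, 13315 and 13843 FPKM on day 9, against 698, 699 and 711 FPKM on day 3 (log2 change 4.30 ± 0.04 SE, limma adjusted p = 2.9e-14), and its copy Pag.A08G001025.v3.1 had 4759, 4355 and 4590 FPKM on day 9, against 219, 221 and 218 FPKM on day 3. The WHY1 genes made up 2.61 ± 0.10% of all FPKM on day 9 and 0.133 ± 0.001% on day 3 (SD, n = 3 each), more than the mesophyll markers on day 9. The remaining WHY1 gene, Pag.B10G000854.v3.1, fell to 24.6, 26.3 and 25.6 FPKM on day 9, against 42.6, 42.7 and 41.2 FPKM on day 3. A cysteine protease inhibitor of the cystatin type (CST3), Pag.B02G002510.v3.1, had 743, 604 and 660 FPKM on day 9, against 20.01, 30.7 and 20.3 FPKM on day 3. A cysteine synthase (cysK), Pag.A05G000487.v3.1, had 146, 126 and 133 FPKM on day 9, against 4.23, 4.27 and 4.15 FPKM on day 3. A MYB transcription factor (MYBP), Pag.B10G001418.v3.1, had 61.3, 53.8 and 58.6 FPKM on day 9, against 1.47, 1.94 and 1.16 FPKM on day 3.

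Other abundant genes moved either way. A peptidylprolyl isomerase (E5.2.1.8), a folding helper, was among the 3 most abundant genes with an orthology name on day 9: Pag.A05G002428.v3.1 had 3192, 2936 and 3147 FPKM on day 9, against 1254, 1283 and 1312 FPKM on day 3. The copper chaperone ATOX1 (Pag.B10G002290.v3.1) was the most abundant of those on day 3, with 1305, 1220 and 1304 FPKM on day 9, against 2032, 2264 and 2197 FPKM on day 3. An RNA-binding protein of the cold-inducible kind (CIRBP), Pag.B09G001171.v3.1, had 253, 454 and 399 FPKM on day 9, against 1792, 1798 and 1777 FPKM on day 3. The 100 most abundant models of each library took 19.4 ± 0.4% of its FPKM on day 9 and 16.7 ± 0.3% on day 3 (SD, n = 3 each).

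Some genes with no orthology name changed as much or more. Pag.A02G002529.v3.1, whose gene ontology terms are heme binding and monooxygenase activity, had 1080, 935 and 974 FPKM on day 9, against 0.77, 0.53 and 0.56 FPKM on day 3 (log2 change 9.27 ± 0.07 SE, limma adjusted p = 5.4e-15). Pag.B09G001061.v3.1, with the term electron carrier activity, had 140, 147 and 184 FPKM on day 9, against 0, 0.34 and 0 FPKM on day 3. Both genes passed the filter through day 9 alone and so had to be higher there. Of the falls, Pag.B07G000832.v3.1 carried no annotation and had 0, 0 and 3.58 FPKM on day 9, against 161, 188 and 158 FPKM on day 3, and Pag.A01G005457.v3.1, with the term chloroplast, had 0, 0.93 and 1.27 FPKM on day 9, against 345, 79.4 and 232 FPKM on day 3. The last of these varied widely within day 3 (log2 change -6.83 ± 1.77 SE, limma adjusted p = 0.0069).

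Day 6 lay close to day 9 in most of what was described. The mean Pearson r across tested genes was 0.966 between libraries of days 9 and 6 and 0.774 between those of days 9 and 3. Among the 3292 genes higher by a log2 change of at least 1, the median of the daily means was 2.60 and 4.09 FPKM on days 0 and 3, then 15.6 and 17.6 FPKM on days 6 and 9. Among the 5951 lower by at least as much it was 12.1 and 9.51 FPKM on days 0 and 3, then 2.22 FPKM on both later days. The day 0 and day 6 values describe genes chosen by their difference between days 9 and 3, and no comparison with those days was tested.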

How the data were processed

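RNA of wild-type 84K poplar leaves was measured in 12 libraries, 3 on each of days 0, 3, 6 and 9 of drought. The authors deposited FPKM values per gene model, as the table's name states. How reads were aligned, to which build, and what computed FPKM: not given in the sources used here. Tables of gene subsets were not used here.

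Values were analysed as log2(FPKM + 1) for genes that reached 1 FPKM in 3 or more of the 6 day 9 and day 3 libraries. limma 3.58.1 in R 4.3.3 fitted 1 mean per day to all 12 libraries, which share the estimate of spread, with an intensity trend and robust moderation, and the contrast was day 9 minus day 3, two-sided. P-values were adjusted by Benjamini and Hochberg over 38296 genes, and genes were called at an adjusted p under 0.05. A fold change on this scale understates that of low genes, and an exact 0 is given as listed at 0. FPKM hold no counts, so no count test was used and no interval for counting error is given.

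The 51 gene lists use KEGG names and pathways from the table and are described by counts and medians. Members and lists were chosen with earlier results of these data known. Named genes include the 8 largest rises and falls with a name and the 2 largest without, all without overlap between the days. To these come the 5 rises and 5 falls with the smallest p-values, the 3 most abundant of each day, and the largest rise and fall of each list. For the largest changes, of all genes and of lists, the higher day averages 5 FPKM or more. The 8 largest changes and the smallest p-values were limited to 1 gene per name. The named genes number 116, and other genes given complete a family. Tested on simulated data for this comparison with 38296 genes, limma called 91% of 100 genes shifted by a log2 change of 1 and 92% of 100 shifted by 2. The shifted genes averaged at least 5 FPKM on day 3 and all others were unchanged. Recovery of lower genes, or where most genes change, was therefore not tested. The alternatives were a pseudocount of 0.1, other filters, a minimum log2 change of 1, median-ratio scaling, the 6 libraries alone, a replicate block and leaving out each library. Libraries with the same number did not deviate together. Tables were made with pandas 2.3.3 and numpy 2.4.6 in Python 3.11.15, and figures with matplotlib 3.10.9.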

Additional observations from a re-analysis of the deposited data

How the results depend on the processing

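The counts of 11259 higher and 17304 lower genes stayed within 1.5 times under most alternatives. With a minimum log2 change of 1 they were 3292 and 5951, and 9506 genes were lower where the mean had to reach 5 FPKM. Leaving out each library in turn gave 10736 to 10848 higher and 16505 to 16880 lower genes. The replicate block gave 11165 higher and 17122 lower. The pairing by number is not given by the labels, and deviations of same-numbered libraries correlated at 0.00580, -0.0533 and -0.0217, with 1 of 3 day 9 libraries closest to its own number. Of 116 named genes, 115 kept their call with a pseudocount of 0.1, median-ratio scaling, the 6 libraries alone, the replicate block and each library left out, the alternatives run for single genes, and ND4 lost it with the 6 libraries alone (log2 change 2.31, limma adjusted p = 0.084).

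Medians of some lists changed sign, most of them near 0 as deposited, but -0.50 for SWEET and -1.50 for guard cell markers. Of these markers 4 of the 7 tested genes had passed the filter through day 3 alone. The medians that changed sign are given below, and the cause was not tested. Under median-ratio scaling they became 0.17 for CYP707A, 0.01 for ABF (0.0095), 0.18 for branched-chain amino acid degradation (as deposited -0.0025), 0.0785 for fatty acid degradation, 0.06 for peroxisome, 0.14 for HSP70, HSP90 and chaperonins, 0.13 for heat shock factors, 0.11 for autophagy, 0.15 for salicylate and defence, 0.15 for flavonoids, 0.083 for phenylpropanoids, 0.12 for cutin and 0.14 for vascular markers. With an FPKM of at least 1 in all 6 libraries they were 1.35 for CYP707A, 0.0225 for branched-chain amino acids, 0.0348 for flavonoids, 0.19 for cutin, 1.92 for guard cell and 0.0429 for vascular markers. Where the mean had to reach 5 FPKM they were 1.35 for CYP707A, 0.057 for branched-chain amino acids, 0.047 for SWEET, 0.0658 for fatty acid degradation, 0.0576 for peroxisome, 0.0132 for cutin, 1.02 for guard cell and 0.77 for vascular markers. With no filter they were 0.0099 for branched-chain amino acids, 0.0107 for salicylate and defence and 0.0128 for flavonoids. Leaving out 1 library at a time, the medians ran between -0.0587 and 0.0455 for cutin, between -0.0224 and 0.0052 for heat shock factors (above 0 without the second day 3 library) and between -0.1139 and 0.0432 for flavonoids (above 0 without the third day 9 library). Salicylate and defence reached 0.0027 without the second day 3 library, and vascular markers 0.0036 without the third day 3 library and 0.0004 without the third day 9 library. Depth is unknown in absolute terms, which limits statements on genes of low FPKM.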
